A study of Mus musculus with 24 samples.

Results

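The genes described are the 40 numbered subunit and activator genes of the proteasome that were counted in the inner medulla of the mouse kidney, 72 h after saline or cisplatin. They were chosen by symbol: every Psma, Psmb, Psmc or Psmd gene with a number, and Psme1 to Psme4, with a count in at least 20 of the 24 libraries. Of 43 such symbols, Psmb8 and Psmb9 were left out by name and Psmb11 had counts in only 11 libraries, which left 40 of the 55416 gene identifiers in the table. All 40 passed the filter on low counts, which kept 18005 genes in all. They comprise 8 genes of the 20S alpha ring (Psma), 8 of the 20S beta ring (Psmb), 6 ATPases of the 19S regulatory particle (Psmc), 14 non-ATPase genes numbered with the 19S particle (Psmd) and 4 activators (Psme).

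The mice were C57BL/6, an inbred laboratory strain, aged 9 to 10 weeks, and the labels name no engineered allele. Each received 1 intraperitoneal injection of 100 µl that held saline or cisplatin at 15 mg/kg, a platinum drug that binds DNA and injures kidney tubules. Poly(A) RNA of the snap-frozen inner medulla was sequenced in 6 libraries of saline males, 6 of cisplatin males, 7 of saline females and 5 of cisplatin females, with totals of 18.1 to 27.3 (in units of 1000000 counts). The labels do not say that each library came from a separate mouse, so p-values measure the spread between libraries only.

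The 26S proteasome degrades proteins that carry ubiquitin chains. Its 20S core is a barrel of alpha rings, which form the gate, around beta rings, which hold the proteolytic sites. The 19S particle caps the core, binds and removes ubiquitin, and unfolds the substrate with its ring of ATPases. Interferon induces alternative catalytic subunits (Psmb8, Psmb9 and Psmb10), which replace the constitutive ones (Psmb5, Psmb6 and Psmb7), and the cap of Psme1 and Psme2 (PA28), which opens the core without ATP. When proteasome activity falls short, the transcription factor NRF1 (gene Nfe2l1) is known to raise subunit genes together through antioxidant response elements.

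The start regions of 3 core genes that rose in males are shown, chosen after their values were seen, because 2 of them hold the antioxidant response element core and the other holds CCAAT boxes, the 2 motifs searched. Each run gives, 5′ to 3′ on the gene's strand, the 250 bases before the RefSeq start (build GRCm38.p6), with motif matches in capitals. Psmb5 and Psmb6 encode the constitutive chymotrypsin-like and caspase-like sites, and Psma1 is an alpha ring subunit.
Psmb5, chr14:54617996-54618245 (- strand): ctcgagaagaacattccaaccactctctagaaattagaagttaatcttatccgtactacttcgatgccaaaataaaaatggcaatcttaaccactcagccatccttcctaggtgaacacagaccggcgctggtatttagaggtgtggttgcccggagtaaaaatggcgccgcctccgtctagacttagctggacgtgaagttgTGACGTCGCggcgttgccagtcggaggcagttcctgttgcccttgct
Psmb6, chr11:70525107-70525356 (+ strand): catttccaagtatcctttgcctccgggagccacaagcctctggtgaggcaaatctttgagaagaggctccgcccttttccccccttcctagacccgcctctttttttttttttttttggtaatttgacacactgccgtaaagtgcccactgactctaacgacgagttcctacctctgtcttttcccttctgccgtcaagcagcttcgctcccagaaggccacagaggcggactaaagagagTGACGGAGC
Psma1, chr7:114276117-114276366 (- strand): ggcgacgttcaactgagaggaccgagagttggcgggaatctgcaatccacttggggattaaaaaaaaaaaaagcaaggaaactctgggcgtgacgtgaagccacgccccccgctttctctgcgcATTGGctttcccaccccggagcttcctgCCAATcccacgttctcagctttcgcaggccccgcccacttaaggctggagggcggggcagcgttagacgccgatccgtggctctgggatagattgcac
In Psmb5 the match to TGACNNNGC began 47 bases before the start, in Psmb6 it began 9 bases before it, and in Psma1 the capitals mark CCAAT and its reverse ATTGG. RefSeq windows (250 bases before to 50 after the start) were at hand for 33 of the 40 genes, and a gene with several windows was counted as holding a motif where any of them did. On either strand, TGACNNNGC was found for 6 of the 33 genes (18.2%). The share was 14% of all 27025 genes with a window and 16.8% of the 12375 tested genes with one. Of the 6, Psmb5, Psmb6 and Psmd9 rose in males, and Psmc6, Psmd12 and Psme4 did not pass there. CCAAT was found for 12 of the 33 (36.4%), for 41.1% of all and for 42% of the tested genes. Of the alpha ring genes 5 of 7 held CCAAT and 0 of 7 held TGACNNNGC, and of the beta ring genes 1 of 5 and 2 of 5 did. These matches describe letters only.

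In saline kidneys the genes differed widely in level and little between libraries or sexes. Per kilobase of the longest principal transcript, the highest levels in male saline libraries were those of Psmb6, at 143 ± 5.54 CPM per kb (SD, n = 6), and of the beta ring subunits Psmb3 and Psmb4 and the alpha ring subunit Psma7, at 111 to 129. The lowest were those of Psma8, the alpha subunit of germ cells, at 0.698, the large activator Psme4 at 11.2, the 19S assembly chaperone Psmd9 at 11.6 and the inducible Psmb10 at 21.7 CPM per kb. Between male saline libraries the coefficient of variation of the 39 genes with a mean of at least 20 CPM had a median of 4.58%, against 8.26% over the 8602 genes at that level. In female saline libraries the medians were 5.89% and 10.4%. Psmb1 varied least in males (2.11%) and Psmd5 most (11.5%). Between female and male saline libraries 0 of the 40 genes differed (background 0.189% of tested genes), 0 had an unadjusted p under 0.05 in edgeR (3.22% of all tested genes did), and the log2 differences ran from -0.25 to 0.17.

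After cisplatin, transcripts of the 20S core and of PA28 rose in males, while most 19S genes did not pass the test. Of the 40 genes 18 rose (background 13.2% of tested genes) and 1 fell, Psmd5 (background 7.54%), by edgeR's quasi-likelihood test with an adjusted p under 0.05. The log2 fold change was above 0 for 34 of the 40 (52.3% of all tested genes), with a median of 0.29 against 0.02 over all, and 28 had an unadjusted p under 0.05 (36% of all). Without male cisplatin library 5 the median of the 40 genes was 0.16 (all tested genes -0.001). It was 0.17 without 3 libraries picked by name (male cisplatin 5, female saline 1 and female saline 6). No cut-off on the marker levels given below picked them. Male saline 2 was kept, though its thick ascending limb markers summed to 2525 CPM, below the 2657 CPM of female saline 1. The rises comprised 6 of 8 beta ring genes, 5 of 8 alpha ring genes, 2 of 4 activators, 1 of 6 ATPases and 4 of 14 non-ATPase genes. In females 0 rose (background 0.2%) and 0 fell (background 0.0722%) in edgeR, and 14 had an unadjusted p under 0.05 (14.8% of all tested genes). DESeq2 called 1 female rise, that of Psmb10. The female log2 fold change was above 0 for 35 of the 40 genes (51.6% of all), with a median of 0.16 against 0.01.

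Averaged over the sexes in the same fit, 23 genes rose (background 16.2%) and Psmd5 fell (background 10.9%). The log2 fold change was above 0 for 35 of the 40 (51.8% of all tested genes), and 30 had an unadjusted p under 0.05 (40.2% of all). The 23 held 7 of 8 alpha ring genes (all but Psma8), 7 of 8 beta ring genes (all but Psmb7), 1 of 6 ATPases, 5 of 14 non-ATPase genes and 3 of 4 activators. The response did not pass a test of a difference between the sexes for any gene: the interaction called 0 of 40 (background 0%), in DESeq2 also 0, and 0 had an unadjusted p under 0.05 in edgeR (4.29% of all tested genes). The female minus male difference in log2 fold change was above 0 for 8 of the 40, with a median of -0.10 (all tested genes -0.02). That median rested on single libraries: it was -0.003 without male cisplatin 5, -0.07 without male cisplatin 3 and -0.16 without male cisplatin 4.

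**Figure D1:**
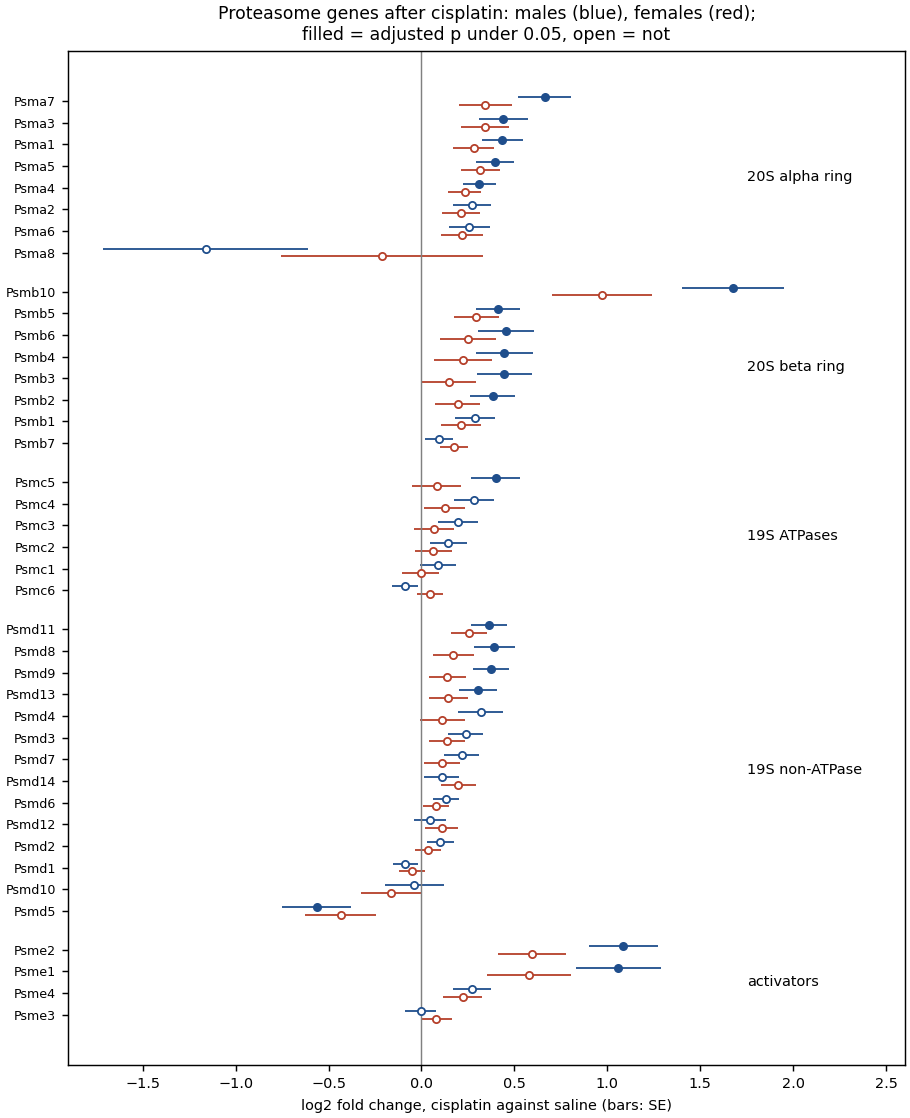
Log2 fold change of each of the 40 genes, cisplatin against saline, in males (blue) and females (red), with bars of 1 SE and filled points for an adjusted p under 0.05. Most points lie right of 0, the largest belong to Psmb10, Psme1 and Psme2, and only male points are filled.

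The male calls differed in how far they depended on the analysis. The 4 rises that held in all 33 alternative analyses were those of Psma7, Psmb10, Psme1 and Psme2, and they were the 4 left when the mean level of proximal tubule and thick limb markers entered the fit. The effect sizes changed less than the calls: the median male log2 fold change of all genes described was 0.261 in that fit and 0.286 without the markers. The marker score itself differed with treatment, at 3.448 to 5.807 in male cisplatin and 5.041 to 6.131 in male saline libraries. Without male cisplatin library 3 or 5 the number of male rises was 10 each, and without library 4 or 6 it was 25 each. Averaged over the sexes, 13 of the 24 calls held in all 32 alternatives: Psma1, Psma3, Psma4, Psma5, Psma7, Psmb5, Psmb10, Psmd5, Psmd8, Psmd9, Psmd11, Psme1 and Psme2.

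Of the alpha ring genes, Psma7 had the largest log2 fold change in both sexes. Apart from Psma8, their male log2 fold changes ran from 0.26 (Psma6, adjusted p = 0.0989) to 0.66 (Psma7), and their female ones from 0.21 (Psma2) to 0.34 (Psma7). Psma7 (chromosome 2) had 97.8 to 106.6 CPM in the male saline libraries and 150.5, 175.1, 198.8, 115.9, 218.2 and 106.4 CPM in male cisplatin libraries 1 to 6. Library 6 lay inside the saline range and the other 5 above it. The male log2 fold change was 0.66 ± 0.14 (SE, edgeR adjusted p = 0.00369). In females Psma7 had 96.4 to 116 CPM under saline and 108.8, 104.7, 110.8, 163.4 and 156.6 CPM in cisplatin libraries 1 to 5, so that only libraries 4 and 5 exceeded every saline library (log2 fold change 0.34 ± 0.14, edgeR adjusted p = 0.272). Psma1 had 104.6 to 114.8 CPM in male saline libraries and 115.6 to 182.1 in male cisplatin libraries, with no overlap (log2 fold change 0.43 ± 0.11, edgeR adjusted p = 0.00967). Psma8 was near the detection limit, at 0.734 to 1.77 CPM in male saline and 0.111 to 1.06 CPM in male cisplatin libraries, ranges that overlap (log2 fold change -1.16 ± 0.55, edgeR adjusted p = 0.131).

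Of the constitutive catalytic subunits of the beta ring, Psmb5 and Psmb6 rose in males and Psmb7 did not pass the test. Psmb5 had 68.14 to 84.07 CPM in male saline libraries and 98.19, 93.56, 127.2, 72.72, 133 and 73.94 CPM in male cisplatin libraries 1 to 6, of which libraries 4 and 6 lay inside the saline range. Its male log2 fold change was 0.41 ± 0.12 (edgeR adjusted p = 0.0192). In females all 5 cisplatin libraries (80.56, 78.9, 85.7, 93.58 and 106.7 CPM) lay above all 7 saline libraries (70.23 to 75.87 CPM), but the log2 fold change of 0.30 ± 0.12 did not pass (edgeR adjusted p = 0.266). Psmb5 was the 1 gene of 40 without overlap in females (background 0.511%). In males 5 of 40 had no overlap (background 3.45%): Psma1, Psmb10, Psmd8, Psmd9 and Psme2. No gene had all cisplatin libraries above the saline range in both sexes (background 0.211%). All cisplatin libraries lay below the saline range for 0 of 40 in males (background 2.48%) and 0 of 40 in females (background 0.339%).

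Psmb6 had 108 to 119.1 CPM in male saline libraries and 128, 128.3, 186.4, 116, 266.6 and 114.7 CPM in male cisplatin libraries 1 to 6. The mean of the cisplatin group rested largely on libraries 3 and 5 (log2 fold change 0.46 ± 0.15, edgeR adjusted p = 0.0348). In females it had 105.7 to 126.6 CPM under saline and 116.2 to 162.3 CPM under cisplatin (log2 fold change 0.25 ± 0.15, edgeR adjusted p = 0.441). Psmb7, which carries the trypsin-like site, had 68.92 to 81.66 CPM in male saline and 68.74 to 98.36 CPM in male cisplatin libraries, where only library 3 exceeded the saline range. In females Psmb7 had 69.24 to 75.64 CPM under saline and 74.01 to 90.37 CPM under cisplatin, where 4 of 5 libraries exceeded the saline range. Its log2 fold change was 0.10 ± 0.08 in males and 0.17 ± 0.08 in females (edgeR adjusted p = 0.371 and 0.293). The other constitutive beta ring genes, Psmb1, Psmb2, Psmb3 and Psmb4, had male log2 fold changes of 0.29 to 0.45, and Psmb1 alone of these missed the threshold (edgeR adjusted p = 0.057).

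**Figure D2:**
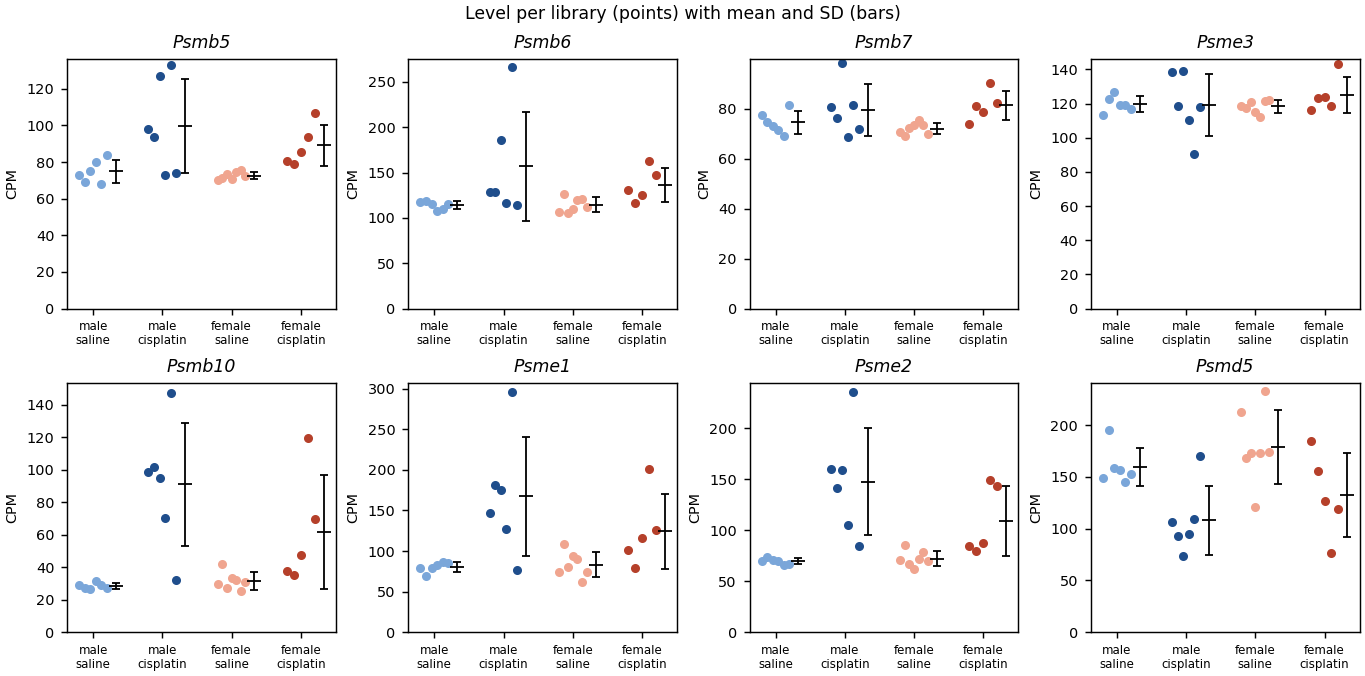
CPM of 8 genes in each library (points), by sex and treatment, with the group mean and SD (bars). Group means of Psmb7 and Psme3 lie close together, Psmb10, Psme1 and Psme2 are higher in most cisplatin libraries, and Psmd5 is lower in most of them.

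The largest log2 fold change among the 40 genes was that of Psmb10, the inducible counterpart of Psmb7. It had 26.85 to 31.45 CPM in male saline libraries and 98.81, 102, 94.88, 70.57, 147.6 and 32.26 CPM in male cisplatin libraries 1 to 6. All 6 lay above the saline range, library 6 by less than 1 CPM. The male log2 fold change was 1.68 ± 0.28 (edgeR adjusted p = 0.00053). In females Psmb10 had 25.52 to 42.09 CPM under saline and 37.41, 34.99, 47.7, 119.7 and 69.49 CPM under cisplatin, where libraries 1 and 2 lay inside the saline range (log2 fold change 0.97 ± 0.27, edgeR adjusted p = 0.126, DESeq2 adjusted p = 0.0396). Per kilobase, the ratio of Psmb10 to Psmb7 was 0.339 ± 0.0346 in male saline and 1.00 ± 0.398 in male cisplatin libraries, and 0.388 ± 0.0736 and 0.657 ± 0.319 in females.

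Psmb8 and Psmb9, the inducible subunits that the choice of genes leaves out, rose with it in males. Psmb8 had 6.905 to 9.455 CPM in male saline libraries and 59.95, 44.94, 51.92, 21.11, 42.46 and 9.124 CPM in male cisplatin libraries (log2 fold change 2.24 ± 0.39, edgeR adjusted p = 0.000891). Psmb9 had 5.769 to 7.18 and 7.117 to 31.62 CPM (log2 fold change 1.81 ± 0.35, edgeR adjusted p = 0.00194). In cisplatin library 6 both were inside the saline range. Per kilobase they stayed below the subunits they replace: the ratio of Psmb8 to Psmb5 was 0.0600 in male saline and 0.205 in male cisplatin libraries, and that of Psmb9 to Psmb6 was 0.0332 and 0.0892.

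The activators split by type. Psme1 and Psme2 form PA28 alpha/beta, which is induced by interferon, Psme3 is the nuclear PA28 gamma, and Psme4 is PA200. Psme1 had 69.2 to 86.78 CPM in male saline libraries and 147.3, 181.1, 175.4, 127.6, 295.8 and 77 CPM in male cisplatin libraries 1 to 6, so that all but library 6 exceeded the saline range (log2 fold change 1.06 ± 0.23, edgeR adjusted p = 0.00357). Psme2 had 65.78 to 74.15 CPM in male saline libraries and 159.8, 141.8, 159.1, 105, 236.1 and 84.85 CPM in male cisplatin libraries, with no overlap (log2 fold change 1.09 ± 0.18, edgeR adjusted p = 0.000747). A near-identical copy, Psme2b, was counted at 5.11 CPM in male saline and 11.5 CPM in male cisplatin libraries, so how reads divide between Psme2 and Psme2b is uncertain.

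In females Psme1 had 61.63 to 109.2 CPM under saline and 101.3, 79.16, 115.7, 201.3 and 125.5 CPM under cisplatin (log2 fold change 0.58 ± 0.23, edgeR adjusted p = 0.258). Psme2 had 61.85 to 85.8 CPM under saline and 84.75, 80.01, 87.33, 149.4 and 143.8 CPM under cisplatin (log2 fold change 0.59 ± 0.18, edgeR adjusted p = 0.168). Libraries 3, 4 and 5 exceeded every saline library for both genes. Per kilobase the 2 PA28 partners kept a ratio near 1 in all 4 groups (group means of 0.963 to 1.01). Psme3 had means of 119.6 ± 4.54 CPM in male saline, 119.2 ± 18.2 in male cisplatin, 118.3 ± 3.75 in female saline and 125 ± 10.8 in female cisplatin libraries (edgeR adjusted p = 0.972 in males and 0.679 in females). Psme4 had log2 fold changes of 0.27 ± 0.10 in males and 0.22 ± 0.10 in females. Neither passed alone (edgeR adjusted p = 0.0628 and 0.322), but their mean did (0.25 ± 0.07, adjusted p = 0.016).

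Of the 19S ATPases, which unfold substrates, only Psmc5 passed in males. Their male log2 fold changes ran from -0.09 (Psmc6) to 0.40 (Psmc5), with a median of 0.17, and their female ones had a median of 0.07. Psmc5 had 119.5 to 136.8 CPM in male saline libraries and 153.6, 144.8, 181.9, 119.2, 270.9 and 129.4 CPM in male cisplatin libraries 1 to 6, with library 4 just below the saline range, library 6 inside it and library 5 highest (log2 fold change 0.40 ± 0.13, edgeR adjusted p = 0.0326). In females it had 120.5 to 138.4 CPM under saline and 126.1 to 149.2 CPM under cisplatin (log2 fold change 0.08 ± 0.13, edgeR adjusted p = 0.796). Psmc6 had 82.75 to 95.42 CPM in male saline and 76.7 to 92.61 CPM in male cisplatin libraries, and the female groups overlapped as well (log2 fold change averaged over the sexes -0.02 ± 0.05, edgeR adjusted p = 0.789). Averaged over the sexes the 1 ATPase that rose was Psmc4 (0.20, edgeR adjusted p = 0.049), a call that held in only 7 of 32 alternative analyses.

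Among the non-ATPase genes, Psmd8, Psmd9, Psmd11 and Psmd13 rose in males and Psmd5 fell. Psmd11 and Psmd13 encode scaffold subunits of the 19S lid, Psmd8 another lid subunit, and Psmd9 a chaperone of 19S assembly. Psmd11 had 77.19 to 92.08 CPM in male saline libraries and 120.5, 104.8, 117.1, 83.47, 124.1 and 88.46 CPM in male cisplatin libraries, of which libraries 4 and 6 lay inside the saline range (log2 fold change 0.36 ± 0.10, edgeR adjusted p = 0.0122). In females it had 79.16 to 91.88 CPM under saline and 84.7 to 119.8 CPM under cisplatin (log2 fold change 0.26 ± 0.10, edgeR adjusted p = 0.249). Genes of the deubiquitinating and ubiquitin-binding subunits did not pass: Psmd14 had a male log2 fold change of 0.11 and Psmd4 of 0.32 (edgeR adjusted p = 0.417 and 0.0606).

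Psmd5, a chaperone of 19S base assembly that is not part of the finished particle, moved the other way. It had 149.1, 195.6, 158.5, 156.1, 144.5 and 152.9 CPM in male saline libraries 1 to 6 and 106, 93, 73.43, 95.11, 109.7 and 169.7 CPM in male cisplatin libraries 1 to 6. Library 6 again lay inside the saline range and the other 5 below it. The log2 fold change was -0.56 ± 0.19 in males (edgeR adjusted p = 0.0348) and -0.50 ± 0.13 averaged over the sexes (adjusted p = 0.00866). In females it had 120.5 to 232.9 CPM under saline and 184.8, 155.2, 126.8, 75.98 and 119.3 CPM under cisplatin (log2 fold change -0.44 ± 0.19, edgeR adjusted p = 0.292). The highest saline values in each sex came from the libraries with the lowest summed level of the 5 thick ascending limb markers. These were male saline 2 (2525 CPM, the others 7937 to 13450), female saline 6 (910.4 CPM) and female saline 1 (2657 CPM). In male cisplatin libraries 1 to 6 that marker sum was 3010, 5597, 7715, 5603, 1620 and 3361 CPM. In female cisplatin libraries 1 to 5 it was 6780, 5500, 9117, 4920 and 3590 CPM. At these sums Psmd5 was low in male cisplatin 5 and 1 as well, and a link was not tested beyond the next fit. With tubule markers in the fit, the male log2 fold change was -0.63 with an adjusted p of 0.0617, and the mean over the sexes was -0.54 with an adjusted p of 0.0197. Without male saline library 2, or without any 1 of male saline 4 and male cisplatin 1 to 5, the male call was lost.

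Summed over each subcomplex, the core and the activators had larger ratios of cisplatin to saline means (1.33, 1.38 and 1.53 in males for alpha ring, beta ring and activators) than the ATPases and non-ATPase genes (1.14 and 1.09). The alpha ring genes summed to 633 ± 10.2 CPM in male saline and 839 ± 180 CPM in male cisplatin libraries, and the beta ring genes to 710 ± 20.4 and 977 ± 299 CPM. In females these sums were 626 ± 28.6 and 759 ± 126 CPM, and 706 ± 27.4 and 846 ± 130 CPM. The ATPases summed to 756 ± 30.4 and 858 ± 193 CPM in males, and to 756 ± 22.7 and 787 ± 29.1 CPM in females. The non-ATPase genes summed to 1412 ± 54.8 and 1540 ± 212 CPM in males, and to 1413 ± 61.3 and 1452 ± 44.7 CPM in females. In males the cisplatin libraries above all saline libraries numbered 5 of 6 for the alpha ring, the beta ring and the activators each, 2 of 6 for the ATPases and 3 of 6 for the non-ATPase genes. In females they numbered 4 of 5 for the alpha ring and 5 of 5 for the beta ring, and 3 of 5 each for the activators, the ATPases and the non-ATPase genes. For all 40 genes the sums in male cisplatin libraries 1 to 6 were 4657, 4504, 5157, 3807, 6450 and 3841 CPM, beside 3734 to 4003 CPM in male saline libraries. Without Psmb10, Psme1 and Psme2 the male and female ratios of group means were 1.18 and 1.09, and with them 1.23 and 1.11. Without male cisplatin library 5 the male ratio was 1.14 for all 40 genes, 1.24 for the alpha ring, 1.23 for the beta ring, 1.04 for the ATPases, 1.04 for the non-ATPase genes and 1.42 for the activators.

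**Figure D3:**
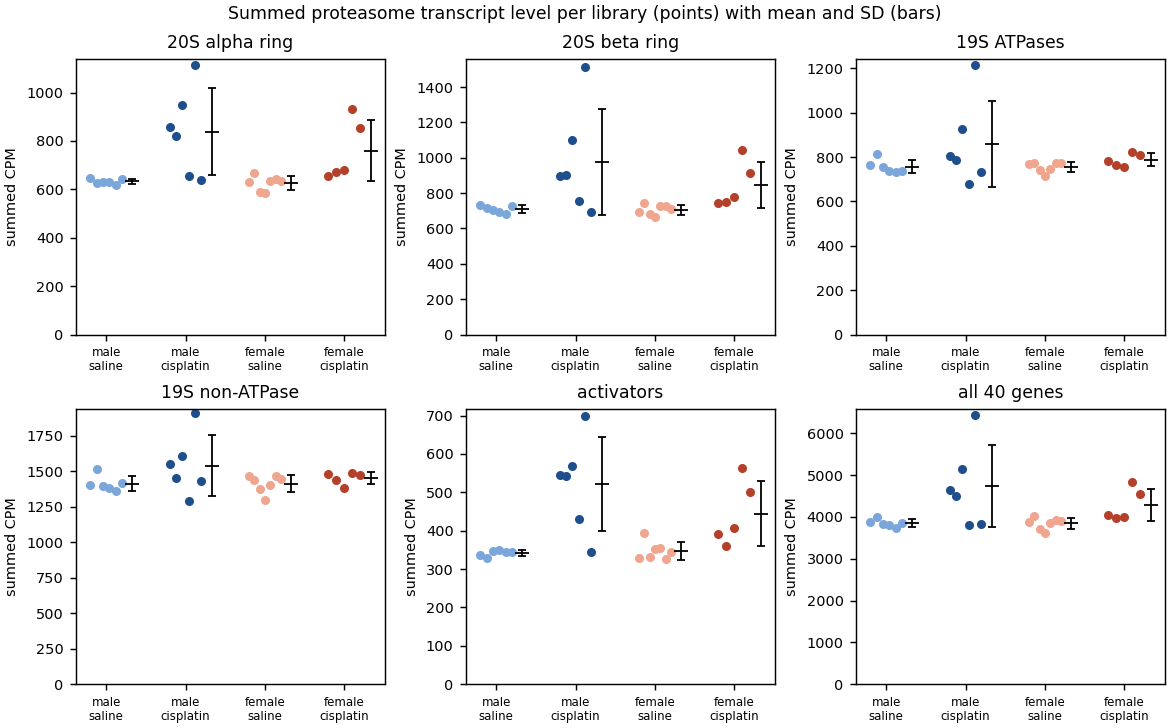
Summed CPM of all 40 genes and of each subcomplex in every library (points), by sex and treatment, with the group mean and SD (bars). Alpha ring, beta ring and activator sums are above the saline range in most cisplatin libraries. ATPase and non-ATPase sums are above it in fewer male libraries, and in females in 3 of 5 each, as for the activators. Cisplatin groups spread more widely than saline groups, except for the female non-ATPase sum.

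The ratio of summed 20S to summed 19S transcripts within a library does not depend on its scaling. It was 0.620 ± 0.022 in male saline and 0.614 ± 0.017 in female saline libraries. In male cisplatin libraries 1 to 6 it was 0.744, 0.770, 0.807, 0.716, 0.841 and 0.616, and in female cisplatin libraries 1 to 5 it was 0.618, 0.647, 0.682, 0.856 and 0.772. Of these, 5 of 6 male and 4 of 5 female libraries lay above all saline libraries of their sex, and the same numbers did with Psmb10 left out of the 20S sum. Lcn2, a transcript of tubular injury, was lowest among male cisplatin libraries in the 1 whose ratio lay inside the saline range: male cisplatin 6 had 212.9 CPM of Lcn2 and the other male cisplatin libraries 1265 to 6589, beside 57.8 to 67.3 in male saline libraries. The other male cisplatin libraries did not share 1 order: library 2 had the highest Lcn2 (6589 CPM, ratio 0.770) and library 5 the highest ratio (0.841, Lcn2 2470 CPM). Female cisplatin libraries 1 to 5 had 545.7, 111, 122.1, 3529 and 2097 CPM of Lcn2, beside 49.4 to 129.2 in female saline libraries. The 2 with the highest ratio (4 and 5) were the 2 with the highest Lcn2. Library 1, whose ratio lay inside the saline range, had the next highest Lcn2. Libraries 2 and 3 lay inside the saline range of Lcn2, but their ratios lay above all female saline libraries.

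**Figure D4:**
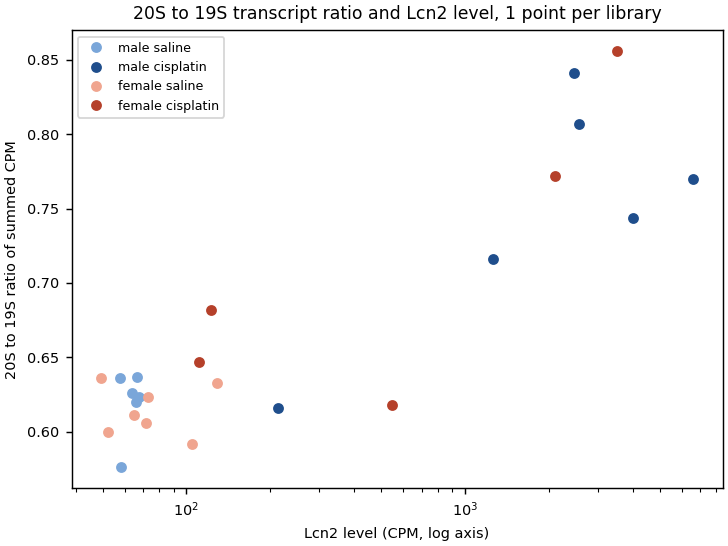
Ratio of summed 20S to summed 19S CPM (vertical axis) against Lcn2 CPM (horizontal log axis), 1 point per library, coloured by group. Saline libraries lie together at low Lcn2 and ratios up to 0.637, and the 7 cisplatin libraries with at least 1265 CPM of Lcn2 have ratios of 0.716 to 0.856.

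Library to library, the treated groups spread widely. The median coefficient of variation of the 39 genes was 23.1% in male cisplatin and 12.8% in female cisplatin libraries, against 19.5% and 14% over the 8602 genes. In male cisplatin libraries it was lowest for Psmc6 (7.49%) and highest for Psme1 (43.8%).

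Genes that act with the proteasome were taken from 8 lists, whose counts stand beside the 13.2% of all tested genes that rose and the 7.54% that fell in males. Of the 5 assembly chaperones tested 2 rose in males: Psmg4 (log2 fold change 1.20, edgeR adjusted p = 0.00319) and Pomp, which matures the 20S core (0.56, adjusted p = 0.0105), with a list median of 0.47. Of 9 proteins that associate with the 26S particle 1 rose, the 19S lid component Sem1 (0.62, edgeR adjusted p = 0.0145), and the median was -0.07. The ubiquitin receptor Adrm1 had 0.11 (adjusted p = 0.499). Of 5 genes of the NRF1 axis 0 passed in males in edgeR, and 0 had an unadjusted p under 0.05. Nfe2l1 itself had group means of 564 to 581 CPM (male log2 fold change -0.04, edgeR adjusted p = 0.814). These are transcript levels, and NRF1 protein and its activity were not measured. Averaged over the sexes Sel1l, an adaptor of endoplasmic reticulum degradation, fell by 0.18 on the log2 scale (edgeR adjusted p = 0.0346). Of 6 ubiquitin and E1 genes Rps27a rose (0.69, edgeR adjusted p = 0.0154) and the E1 enzyme Uba6 fell (-0.39, adjusted p = 0.0196), while Ubb had 0.24 (adjusted p = 0.165). Of 8 shuttle factors and VCP partners Ubqln4 rose (0.25, edgeR adjusted p = 0.0207) and Ubqln2 fell (-0.43, adjusted p = 0.0283), and of 3 stress adaptors Zfand2b rose (0.36, adjusted p = 0.0392). Of 9 subunits of the COP9 signalosome, a relative of the 19S lid, Cops7b rose (0.36, edgeR adjusted p = 0.0138) and Cops2 fell (-0.21, adjusted p = 0.0435). In females 0 of the genes on these lists passed in edgeR (0.2% of all tested genes rose and 0.0722% fell), and 12 of 47 had an unadjusted p under 0.05 (14.8% of all).

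Other transcripts moved with treatment in the same libraries. Their counts too stand beside the 13.2% of all tested genes that rose and the 7.54% that fell in males. All 5 interferon response markers rose in males, from sums of 69.6 to 89.1 CPM in saline to 660.8, 509, 253.5, 156.9, 252.7 and 84.56 CPM in cisplatin libraries 1 to 6. Proteasome sums did not follow that order: library 5 had the highest sum of the 40 genes and library 1 the highest interferon sum. In females the interferon sums were 77.4 to 131 CPM in saline and 119.4, 101.5, 173.2, 381.4 and 245.4 CPM in cisplatin libraries 1 to 5, beside sums of the 40 genes of 4053, 3983, 3998, 4848 and 4553 CPM. Libraries 4 and 5 were highest and library 2 lowest in both. Interstitial markers fell in males (4 of 4, sums of 375 to 443.6 CPM in saline and 60.88 to 326.9 in cisplatin libraries), as did 3 of 4 endothelial markers (583.2 to 636.2 and 185.2 to 662.7 CPM). Of 5 macrophage and monocyte markers Cd68 rose and Adgre1 fell (sums of 57.91 to 124.2 and 59.13 to 90.24 CPM). Principal cell markers of the collecting duct, which define the tissue, were present in every library (summed 4390 to 10160 CPM), and 1 of 5 fell in males, the water channel Aqp3 (log2 fold change -0.69, edgeR adjusted p = 0.0281). Of 5 thick ascending limb markers Egf fell in males (-2.09, edgeR adjusted p = 0.0182; list sums of 2525 to 13450 CPM in saline and 1620 to 7715 in cisplatin libraries). No marker of any list was at 0 in all libraries of a group. The part of these transcripts in the proteasome values was not tested beyond the fit with tubule markers, and in bulk tissue fewer cells of a type and less RNA per cell cannot be told apart.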

How the data were processed

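RNA of 24 inner medulla libraries was analysed from the counts per gene that the authors deposited, whole numbers under Ensembl identifiers. Tools named in the submitters' processing notes are Trim Galore 0.6.7, Subread 2.0.1, featureCounts and DESeq2 1.28.1, with build mm10. The sources used here do not give aligner, annotation release or strandedness. Symbols were found for 52083 of 55416 identifiers, and the other 3333 held 0.24% of counts. In R 4.3.3, edgeR 4.0.16 kept 18005 genes (filterByExpr, minimum count 10), scaled libraries by TMM and fitted a quasi-likelihood model of group means to all 24 libraries, with Benjamini-Hochberg adjustment over all tested genes and a threshold of 0.05. The scripts were tested on simulated data. Of genes changed 1.5-fold there, 33% were recovered in males, 33% in females and 58% in the mean of the sexes. Of genes changed 3-fold, 90.6%, 88.5% and 96.9% were. A gene that did not pass may therefore still have changed by a small factor. CPM use TMM-scaled library sizes, and levels per kilobase use the longest principal transcript of GENCODE M21. Full values are given for the catalytic beta subunits, the activators, and the highest and lowest gene of each subcomplex by mean log2 fold change; Psma1, Psmb8 and Psmb9 are added for the printed sequence and as best known list members. The members and lists were chosen with earlier results of these data known. Alternatives were other scalings, no filter, DESeq2 1.42.0, a replicate block, a tubule marker covariate, each sex alone, and leaving out libraries. No 2 libraries were copies (chi-square per gene at least 7.34 over 276 pairs).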

Additional observations from a re-analysis of the deposited data

Results flagged for a closer look

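Among 80 checks of a highest or lowest library in a group, 4 stood apart from the rest of their group, and chance sets apart about 1 group in 20. The non-ATPase sum of male saline library 2 was 1517 CPM, against 1362 to 1417 in the other 5. Psmd5 was at 195.6 CPM in the same library, against 144.5 to 158.5. Psmc6, an ATPase of the 19S base, was at 106.9 CPM in female saline library 6, against 82.16 to 91.39. Psme3, the nuclear activator, was at 143.4 CPM in female cisplatin library 5, against 116.1 to 123.6.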

How the results depend on the processing

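With 1 library left out, the ratio of cisplatin to saline means of the sum of all 40 genes was at its lowest 1.14 in males (without male cisplatin 5) and 1.08 in females (without female cisplatin 4). The number of genes that rose in males, 18, was 11 with no filter on low counts and 4 with tubule markers as a covariate. It was 10 without 3 libraries picked by name (male cisplatin 5, female saline 1 and female saline 6), and 7 with each sex fitted alone. It ran from 10 to 25 when 1 library was left out. With tubule markers the median male log2 fold change of the 40 genes was 0.261, against 0.286 in the main fit. The 1 male fall (Psmd5) became 0 with tubule markers, and ran from 0 to 1 with 1 library left out. Female rises, 0, became 1 in DESeq2, and ran from 0 to 1 with 1 library left out (1 without male cisplatin 6). The 23 rises averaged over the sexes became 13 with tubule markers and ran from 15 to 28 with 1 library left out (15 without female cisplatin 4), and the falls ran from 1 to 2. Replicate numbers do not pair the libraries: over 33 same-numbered pairs the correlation of deviations ran from -0.297 to 0.28, and the own number was the best match in 8 of 66 cases. With the replicate block the male rises were 13 and the mean rises 15. Signs turned for genes near 0: Psme3 in males was 0.062 without the 3 libraries and ran from -0.053 to 0.051 with 1 library left out; its mean was -0.008 with tubule markers; Psma8 in females was 0.071 and Psmc6 averaged over the sexes 0.013 without the 3 libraries, and Psmc6 ran from -0.042 to 0.005 with 1 library left out. The causes were not tested. Counts per library limit Psma8 only.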
